A study of Mus musculus with 26 samples.

Results

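The KO-labelled day 12 transcriptome is the pair of RNA-seq libraries titled as Klf4-knockout neural progenitor cell (NPC) cultures, chosen by their sample titles. They are 2 of the 4 RNA-seq libraries and 2 of the 26 samples of the series. The cells derive from E14, a mouse embryonic stem cell (ESC) line that all groups share. Per the labels, ESCs were kept on gelatin in serum with LIF, the MEK inhibitor PD0325901 and the GSK3 inhibitor CHIR99021, and RNA was taken with Trizol after neural induction for 12 days. The comparison group is 2 WT-labelled libraries of the same stage. A HiChIP loop list for RNA polymerase II is used from each label, deposited as 1 list for 2 samples, and the ESC ChIP-seq data were not used here. How the knockout was made, whether it is 1 clone and what the induction medium held is not stated in the labels. Gene counts totalled 31909094 and 33347088 in the KO-labelled libraries, and 37703866 and 29835774 in the WT-labelled ones. Levels are in CPM, the counts of a gene scaled to the total gene counts of its library. They are not corrected for transcript length, so an order of genes by CPM is an order by share of counts, not of molecules.

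Klf4, the gene named as knocked out, went against the labels. It had 2571 and 2538 counts in the KO-labelled libraries, or 80.6 and 76.1 CPM, and 0 counts in each WT-labelled library. The libraries are therefore called by their label throughout, and no direction below is one of a known genotype.

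Naive pluripotency is held by a circuit of transcription factors including Pou5f1, Sox2, Nanog, Esrrb and Klf4 and is stabilised in culture by LIF and by blocking MEK. On release, cells pass through an epiblast-like state marked by Otx2, Fgf5 and Dnmt3b before they choose neural or mesendodermal fates. Neural progenitors then switch on factors such as Sox1 and Pax6 and shut the pluripotency circuit, and FGF signalling through ERK induces immediate early genes such as Egr1 together with phosphatases such as Dusp4 that restrain it.

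The promoters of 3 genes named in this report are shown, of which those of Acta2 and Klf4 hold letters counted in groups described below. They come from the RefSeq table of GRCm38.p6 and run 5′ to 3′ on the gene's strand, from 250 bases before to 50 bases after the start. Acta2 lies at chr19:34255324-34255623 on the minus strand, Klf4 at chr4:55532426-55532725 on the minus strand and Krt18 at chr15:102027966-102028265 on the plus strand. Capitals mark matches, on either strand, to GGGCGG, to GGAATG, to CCAAT, to TATAAA or to a CArG box, the site of serum response factor, with 1 inner base free. In Klf4 a pair of the GGGCGG matches overlap, and Krt18 held no match to any of these letters in this window.
Acta2: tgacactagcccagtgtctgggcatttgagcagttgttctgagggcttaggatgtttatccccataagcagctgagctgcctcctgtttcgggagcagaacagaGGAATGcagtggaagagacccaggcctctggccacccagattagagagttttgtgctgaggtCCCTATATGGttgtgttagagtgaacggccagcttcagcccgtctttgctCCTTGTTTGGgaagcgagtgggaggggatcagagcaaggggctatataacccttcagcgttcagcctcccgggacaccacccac
Klf4: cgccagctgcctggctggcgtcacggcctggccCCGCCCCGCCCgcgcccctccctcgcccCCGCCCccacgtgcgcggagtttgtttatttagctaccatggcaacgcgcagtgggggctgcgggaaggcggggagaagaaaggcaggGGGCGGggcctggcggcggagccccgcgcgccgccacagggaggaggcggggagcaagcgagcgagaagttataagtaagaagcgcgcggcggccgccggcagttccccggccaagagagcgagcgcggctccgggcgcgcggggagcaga
Krt18: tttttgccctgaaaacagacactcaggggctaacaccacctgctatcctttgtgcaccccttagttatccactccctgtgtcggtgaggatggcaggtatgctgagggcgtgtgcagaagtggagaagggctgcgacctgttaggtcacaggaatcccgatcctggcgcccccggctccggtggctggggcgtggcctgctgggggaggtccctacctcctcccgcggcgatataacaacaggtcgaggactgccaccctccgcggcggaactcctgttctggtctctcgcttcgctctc

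The 4 marker genes were all on at high or moderate level in both KO-labelled libraries. Egr1, an immediate early transcription factor, had 85.9 and 82.6 CPM in the KO-labelled libraries, against 0.239 and 0.402 in the WT-labelled ones. Dusp4, a phosphatase of MAP kinases, had 114.5 and 114.8 CPM against 1.35 and 1.21. Krt18, a keratin of simple epithelia, had 206.5 and 205.3 CPM against 4.03 and 2.68. Acta2, smooth-muscle actin, had 163.8 and 158.6 CPM, and the WT-labelled libraries held 1 and 0 counts. For each of the 4 genes both KO-labelled values lay above both WT-labelled values. The 4 genes were chosen as markers of the KO-labelled libraries, so this separation and the p-values below describe them and are not support. In the KO-labelled libraries Krt18 stood at the 93.4 percentile of the protein-coding genes that were on, Acta2 at 90.6, Dusp4 at 84.7 and Egr1 at 78.0. The log2 differences in the fit over all genes were 7.86 ± 0.14 (SE) for Egr1, 6.26 ± 0.096 for Dusp4 and 5.70 ± 0.083 for Krt18 (edgeR quasi-likelihood test, n = 2 per label, Benjamini-Hochberg adjusted p = 2.53e-24, 1.55e-25 and 9.78e-23). Here and below, SE is the size of the log2 difference over the square root of the test's F value, not a spread between libraries. With 9 and 12 counts in the WT-labelled libraries, the Egr1 difference was 7.48 without WT replicate 1 and 8.22 without WT replicate 2. The same fit called 12618 of 17273 genes, 73.1%, with 6428 higher (37.2%) and 6190 lower (35.8%) under the KO label, so a call alone sets none of the markers apart. With library size alone as the scaling, the split became 7820 higher and 4787 lower.

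**Figure D1:**
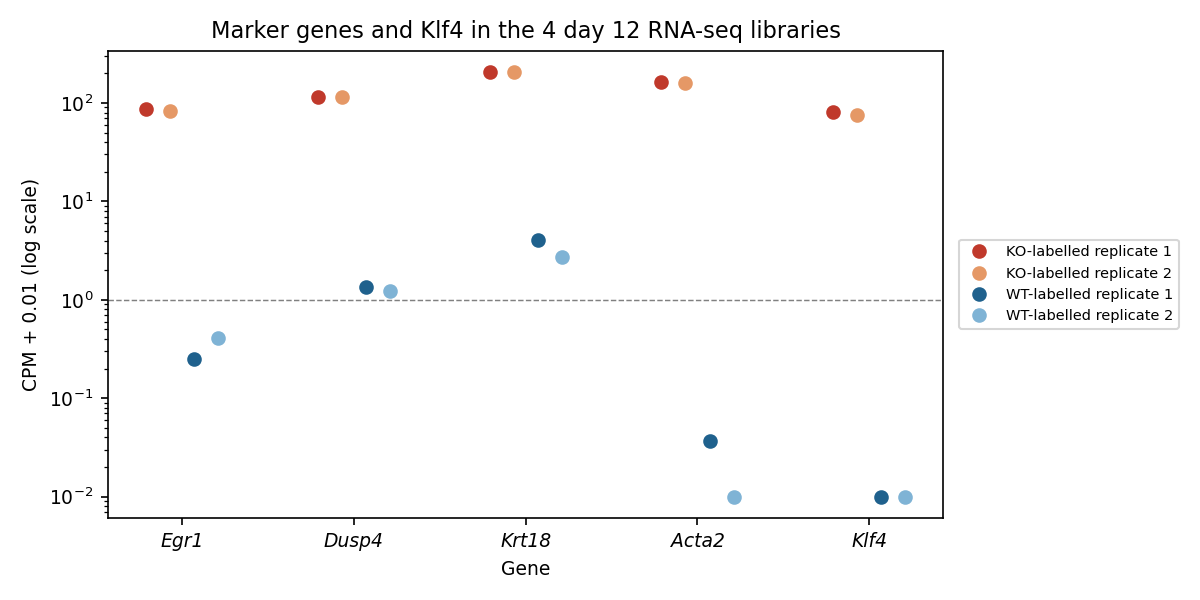
CPM plus 0.01 on a log scale for Egr1, Dusp4, Krt18, Acta2 and Klf4, 1 point per RNA-seq library, with a dashed line at 1 CPM. KO-labelled points sit between 76.1 and 206.5 CPM and WT-labelled points at 4.03 CPM or below, with Klf4 at 0.

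The replicates were close. Across 26470 rows the log2(CPM + 1) values of the 2 KO-labelled libraries had r = 0.997, a description over genes, which are not independent. Of 13963 rows at 1 CPM or more in both, 96.9% lay within 1.5-fold and 39 differed by more than 2-fold. Their counts differed beyond sampling noise (chi-square per degree of freedom 4.19), so they were counted as 2 libraries. The genes farthest apart included Kif11, a mitotic kinesin, at 3.98 and 38.6 CPM, and Hnrnpu, a nuclear RNA-binding protein, at 23.2 and 122 CPM. Kif11 was split in the same way in the WT-labelled libraries, at 4.43 and 44.3 CPM, while Hnrnpu was not, at 28.1 and 28.9 CPM. Lsm4, a U6 RNA-binding protein, had 101 and 53.9 CPM.

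Of 21238 protein-coding genes, 12479 (58.8%) were on, meaning at least 1 CPM in both KO-labelled libraries. At least 10 CPM in both, called well expressed, was reached by 9275 (43.7%), and at least 100 CPM, called high, by 2215 (10.4%). At most 3 counts in each library, called silent, was found for 5690 (26.8%), and 3069 were in between, called trace. Here 3 counts correspond to 0.0940 and 0.0900 CPM. The median protein-coding gene had 4.96 CPM. These shares are the background against which the gene lists below are read. The lists were chosen with earlier results of these data known, so counts of their members are descriptions.

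Genes of translation led the transcriptome by share of counts. The 84 cytosolic ribosomal protein genes took 9.54% and 9.71% of gene counts, with 83 on and 76 high. The 37 mitochondrially encoded genes took 2.12% on average, unevenly spread. Among them mt-Co1, at rank 2 of all rows, had 11757 and 11927 CPM and mt-Cytb had 2798 and 2736 CPM. In contrast, mt-Co2 had 45.7 and 48.8 CPM and mt-Co3 had 26.2 and 24.1 CPM. Reads aligned to several places were not counted, so the mitochondrial share may be too low, which was not tested. Apart from ribosomal protein and mitochondrial genes, Eef1a1, which brings aminoacyl-tRNA to the ribosome, had 12760 and 12312 CPM. Eef2, which moves the ribosome along, had 6183 and 6096 CPM. The chaperones Hsp90ab1 (mean 5494 CPM) and Hsp90aa1 (3848 CPM) followed, then Rack1 (2624 CPM), the nucleolar protein Npm1 (2606 CPM) and Pkm, pyruvate kinase (2503 CPM). Below them came the ubiquitin ligase Nedd4 (2252 CPM), Ptma (2155 CPM), Tpt1 (1988 CPM), the actin Actg1 (1921 CPM), Hnrnpa1 (1918 CPM) and the glucose transporter Slc2a3 (1905 CPM). The set of 20 was completed by Apoe, Eno1, Tubb5, Pabpc1, Ppia, Ncl and Atp5b, between 1635 and 1875 CPM, and each library alone gave the same 20. Apoe, a lipid carrier also listed under endoderm, had 1827 and 1923 CPM against 475 and 469 in the WT-labelled libraries, a log2 difference of 1.78 ± 0.026 (edgeR adjusted p = 5.88e-26). Eef1a1 differed by -0.06 ± 0.019 (edgeR adjusted p = 0.0102), and that direction turned with upper-quartile scaling (0.030) and with library size alone (0.15). Actg1 (0.0073 ± 0.027) and Hnrnpa1 (0.020 ± 0.022) did not pass the test.

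Among long noncoding RNAs, Malat1 was highest at 530 and 544 CPM. H19, an imprinted transcript, followed at 483 and 508 CPM, against 8.09 and 8.04 in the WT-labelled libraries (log2 difference 5.73 ± 0.048, edgeR adjusted p = 1.76e-30). Lncenc1, a transcript named for its abundance in ESCs, had 400.1 CPM on average, Firre had 317 and 325 CPM, Snhg14 had 181 and 178 CPM, and Platr10, Mir17hg and Tug1 lay between 121 and 162 CPM on average.

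The pluripotency list was on as a whole. All 27 members were on and well expressed, 17 were high and none was silent, with a median of 190 CPM. Dppa5a, an RNA-binding protein of pluripotent cells, had 1488 and 1492 CPM, Esrrb had 509 and 524 CPM, Klf2 had 491 and 509 CPM and Sox2 had 471 and 509 CPM. Pou5f1 had 461 and 463 CPM and Nanog had 436 and 438 CPM. The lowest members were Klf5 (43.1 and 42.5 CPM), Dppa2, Tbx3 and Prdm14 (25.8 and 24.7 CPM). The WT-labelled libraries also had all 27 on, with a median of 238 CPM, and the fit placed 7 members higher and 20 lower under the KO label, where 37.2% of all genes tested were higher and 35.8% lower.

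The formative and primed epiblast list was on beside it. Of 21 members 20 were on, 18 well expressed and 7 high, with a median of 58.4 CPM. Etv5, an ETS factor induced by FGF, had 549 and 545 CPM, the DNA methyltransferases Dnmt3b and Dnmt3a had 339 and 330 CPM and 199 and 208 CPM, and Otx2 had 183 and 181 CPM. Fgf5, the classical mark of the formative epiblast, had 45.7 and 48.3 CPM, against 0.398 and 0.235 in the WT-labelled libraries. The lowest member was Nkx1-2, at 0.972 and 1.08 CPM. In bulk RNA, fewer cells of a type and less RNA per cell cannot be told apart, so whether the same cells held both lists was not tested.

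Set against the label as neural progenitors, most genes of that list were on, but not all. Of 27 neural progenitor genes 20 were on (74.1%, against 58.8% of all protein-coding genes) and 15 well expressed. Their median was 15.2 CPM, above the 4.96 CPM of all protein-coding genes. Among the highest were Sox2, the intermediate filament Vim (229 and 225 CPM) and Nes, nestin (101 and 106 CPM), and Sox2 is also a gene of pluripotent cells. Sox1 had 13.9 and 16.5 CPM and Pax6 had 3.76 and 3.90 CPM. Hes5, the Notch effector of neural stem cells, had 0.219 and 0.120 CPM, Neurog2 had 0.125 and 0.0900 CPM, and Olig2 had 0 and 0.0300 CPM, the latter being 1 count.

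Regional and later neural genes were lower. Of 20 forebrain and midbrain genes 9 were on (45%, against 58.8% of all protein-coding genes) and none well expressed. They were led by En2 (6.30 and 7.65 CPM), En1 and Lmx1b, and Nkx2-1 was at 0 counts in both. Of 20 hindbrain and spinal cord genes 6 were on (30%, below that share) and none well expressed. They were led by Irx3 (7.83 and 8.34 CPM), and Hoxb1, Hoxb2, Hoxb4 and Hoxd4 were at 0.12 CPM or below. Of 32 neuronal genes 23 were on (71.9%, against 58.8% of all protein-coding genes) and 9 well expressed. The list's median was 4.79 CPM, near the 4.96 CPM of all protein-coding genes. Its sum was carried by Stmn2 (177 and 177 CPM) and Ina (96.9 and 92.4 CPM). Tubb3 had 23.9 and 21.8 CPM, and Neurod2, Gria2, Slc17a6 and Chat were at 0.12 CPM or below. Of 16 glial genes 7 were on (43.8%, below that background), led by Slc1a3 (57.4 and 60.7 CPM), with Gfap at 0.188 and 0.450 CPM. Of 16 neural crest genes 10 were on (62.5%, near that background), led by Kit and Foxd3, with Sox10 at 0.470 and 0.420 CPM and Dct at 0. Foxd3 is also in the formative and primed epiblast list. The neural crest list summed to 174 and 169 CPM, against 473 and 455 CPM in the WT-labelled libraries.

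Mesendodermal and endodermal factors were detected at low to moderate level. Of 25 mesendoderm and mesoderm factors 11 were on (44%, below the 58.8% of all protein-coding genes), 4 were well expressed and none was high. Their median was 0.829 CPM. Eomes, a T-box factor of the primitive streak, had 36.6 and 32.9 CPM, Tcf15 had 28.5 and 29.2 CPM, Lhx1 had 19.1 and 19.5 CPM and T, brachyury, had 10.9 and 12.5 CPM, while Tbx5 was at 0. Of 25 endoderm genes 16 were on (64%, near the share over all protein-coding genes) and 4 high. The high ones were Apoe and the basement membrane genes Lamc1 (345 and 343 CPM), Sparc and Lamb1, which many cell types express. Sox17 had 11.4 and 13.1 CPM and Foxa2 had 10.3 and 9.96 CPM, while Afp, Alb and Ttr, products of differentiated endoderm, were at 2 counts or fewer in each library.

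Most contractile and simple-epithelium genes were on. Of 27 contractile and smooth-muscle genes 24 were on (88.9%, against 58.8% of all protein-coding genes). Of these, 20 were well expressed and 13 high, and the list's median was 50.0 CPM. Flna, an actin cross-linker, had 988 and 971 CPM, Tpm1 had 666 and 695 CPM, Myh9 had 659 and 636 CPM and Actn4 had 571 and 566 CPM. The list joins general contractile genes with genes of smooth muscle. Its 4 lowest members were genes of smooth muscle: Myh11 had 1.38 and 2.25 CPM, the coactivator Myocd 0.877 and 0.810 CPM, Tagln 0.721 and 0.480 CPM and Actg2 0.125 and 0.0600 CPM. Other muscle genes of the list lay between these and Acta2, with Tpm2 at 32.1 and 36.4 CPM, Myl9 at 31.6 and 33.1 CPM, Des at 30.5 and 26.0 CPM, Cnn1 at 8.99 and 9.06 CPM, Actc1 at 8.30 and 6.57 CPM and Lmod1 at 3.92 and 4.50 CPM. In the fit 24 of 26 contractile genes were higher and 1 lower, against 37.2% and 35.8% of all genes tested. Such counts were not limited to this list: 23 of 25 simple-epithelium genes and 22 of 25 fibroblast and matrix genes were higher too. The lists were chosen with earlier results of these data known, so these counts describe the lists and are not a test. Skeletal and heart genes were mostly low, with 10 of 20 on (50%, against 58.8% of all protein-coding genes). Of these, 1 was well expressed, Tnnt1 (31.0 and 34.0 CPM). Myf5 and Myf6 were at 0.

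Of 25 simple-epithelium genes 24 were on (96%, against 58.8% of all protein-coding genes). Of these, 19 were well expressed and 9 high, and the list's median was 61.8 CPM. Cdh1, E-cadherin, had 712 and 687 CPM, the junction protein Jup 286 and 281 CPM, Epcam 257 and 270 CPM, Cldn4 258 and 257 CPM and Krt8, the partner of Krt18, 216 and 216 CPM. Krt20 was lowest at 0.533 and 0.660 CPM. Cdh1 and Epcam are also genes of pluripotent cells. Of 13 stratified-epithelium genes 5 were on (38.5%, below the 58.8%) and 6 silent (46.2%, against 26.8% of all protein-coding genes). Krt5 was at 0 and 1 counts, and Ivl, Flg and Dsg3 were at 0. Of 12 trophoblast genes 8 were on (66.7%, against 58.8% of all protein-coding genes). Of these, 2 were well expressed, Tfap2c (93.6 and 92.6 CPM) and Tead4, while Prl3d1 and Tpbpa were at 0. The trophoblast list summed to 140 and 136 CPM, against 151 and 149 CPM in the WT-labelled libraries. Of 17 endothelial and blood genes 8 were on (47.1%, below the 58.8% of all protein-coding genes). They were led by Pecam1 (74.0 and 75.8 CPM), and Emcn and the globins Hbb-bh1 and Hba-a1 were at 0. The endothelial and blood list summed to 166 and 162 CPM, against 149 and 151 CPM in the WT-labelled libraries.

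Of 29 fibroblast and matrix genes 24 were on (82.8%, against 58.8% of all protein-coding genes) and 6 high. Fn1, fibronectin, had 1465 and 1427 CPM, Cyr61 had 167 and 164 CPM, and the collagen gene Col1a2 reached 160 and 154.5 CPM. Dcn (0.376 and 0.0600 CPM), Lum (0.0313 and 0.150 CPM) and S100a4 (0), which mark differentiated fibroblasts, were near or at 0. Of 17 germline and 2-cell genes 8 were on (47.1%, below the 58.8%) and 7 silent (41.2%, against 26.8% of all protein-coding genes). Sycp3, of the meiotic chromosome axis, had 61.6 and 65.9 CPM, and Zscan4c, Zscan4d and Zscan4f were at 0 in both libraries. These copies are near-identical, so their counts are uncertain.

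**Figure D2:**
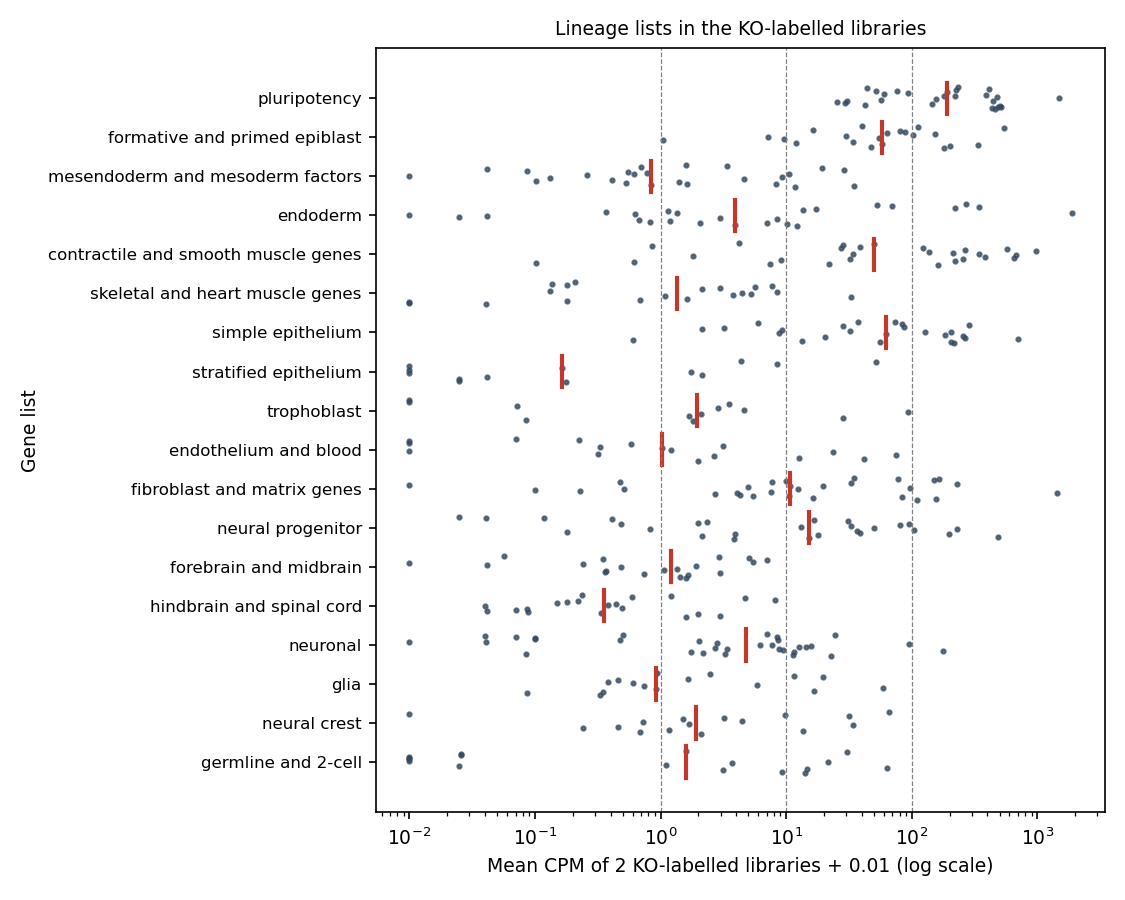
Mean CPM of the 2 KO-labelled libraries plus 0.01 on a log scale, 1 point per gene of 18 lineage lists, with red bars at list medians and dashed lines at 1, 10 and 100 CPM. The pluripotency median is 190 CPM, the contractile median 50.0 and the forebrain and midbrain median 1.20.

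Genes that respond to FGF and ERK were on. All 32 response genes were on, 23 were well expressed and 6 high, with a median of 39.5 CPM. After Etv5, the highest were Ier2 (210 and 212 CPM), Srf, serum response factor (124 and 120 CPM), and Junb (115 and 118 CPM), and the lowest were Egr2, Fosl1, Jund and Dusp2 (1.13 and 1.74 CPM). Jund may be undercounted where reads match several places. Among 21 ligands and receptors 18 were on: Fgf4 had 215 and 226 CPM, Fgfr1 had 165 and 157 CPM and Erbb3 had 96.2 and 92.3 CPM, while Fgf2, Areg and Ereg were at 0.24 CPM or below. All 15 LIF and STAT3 genes were on as well, led by the kinase Pim3 (295 and 313 CPM), Il6st, the shared receptor chain (155 and 140 CPM), and Lifr (135 and 134 CPM).

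Of 24 YAP and TEAD genes all were on, 23 well expressed and 9 high, with a median of 69.3 CPM. Amotl2 had 371 and 381 CPM, Ajuba had 352 and 356 CPM, the DNA-binding partner Tead1 had 292 and 290 CPM and Nf2 had 220 and 213 CPM, and Ankrd1 was lowest at 10.4 and 9.36 CPM. Of 28 Nodal and TGF-beta genes 26 were on, with the coreceptor Tdgf1 at 469 and 481 CPM and the inhibitor Lefty2 at 152 and 151 CPM, while Gdf1 was at 0. Of 41 Wnt genes 36 were on, led by Ctnnb1 (790 and 801 CPM) and Fzd7 (247 and 239 CPM), with Wif1 at 0 and 0.330 CPM. Of 26 BMP genes 22 were on and 1 was high, Fstl1 (119 and 117 CPM), and the target Id3 had 74.7 and 78.0 CPM.

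Receptors of Notch and Hedgehog signalling were on. Of 23 Notch genes 17 were on (73.9%, against 58.8% of all protein-coding genes). Rbpj, the DNA-binding effector, had 336 and 306 CPM and Notch3 had 179 and 168 CPM. The effectors Hes5 and Heyl and the ligand Dll4 were below 0.5 CPM, and Dlk1 was at 0. Of 29 Hedgehog and retinoic acid genes 23 were on (79.3%, above that share), led by the receptor Ptch1 (118 and 108 CPM), Rarg and Smo. Rarb, a retinoic acid target, had 0.376 and 0.180 CPM, and Aldh1a1, Aldh1a3 and Dhh were at 0.150 CPM or below.

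Glycolytic genes had the highest median of the 36 lists, 337 CPM, with 28 of 30 on and 18 high. After Pkm, Slc2a3 and Eno1 came Aldoa (1558 and 1527 CPM), whereas the tissue-restricted Pklr had 1.38 and 1.02 CPM. Of 28 genes of the TCA cycle and pyruvate entry 27 were on, led by Cs, citrate synthase (287 and 299 CPM), with Sdha also among the highest, and Pck1 had 0.125 and 0 CPM. Mpc1, of the pyruvate carrier, was listed at 2.01 and 2.70 CPM, and Fdps, of sterol synthesis, at 2.51 and 1.98 CPM. Both are uncertain, since reads shared with near-identical copies would not be counted.

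All 31 genes of serine, one-carbon and amino acid metabolism were on, with a median of 134 CPM. Odc1 had 646 and 656 CPM, Gldc, of glycine cleavage, 433 and 431 CPM, Glud1 405 and 394 CPM and Asns 354 and 344 CPM. Tdh, threonine dehydrogenase, an enzyme mouse ESCs depend on, had 355 and 331 CPM. All 26 genes of cholesterol and fatty acid synthesis were on, led by Scd2 (689 and 665 CPM), Acly and Fasn. Of 27 genes of fatty acid oxidation and lipid storage 19 were on (70.4%, against 58.8% of all protein-coding genes). They were led by Fabp3 (334 and 325 CPM), while Fabp4 was at 0 and Plin1, Ppargc1a and Cidea were at 0.300 CPM or below. Of 16 liver and gut genes 1 was on (6.25%), Fbp1 (4.26 and 3.99 CPM). In that list 10 were silent (62.5%, against 26.8% of all protein-coding genes).

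Proliferation and chromatin genes were on almost throughout. All 35 cell-cycle genes were on, with a median of 166 CPM, led by Mybl2 (1004 and 1016 CPM) and Top2a (846 and 817 CPM), and the inhibitors Cdkn2b and Cdkn1c were lowest at 3.23 to 5.64 CPM. Of 37 chromatin genes 36 were on, led by Chd4 (665 and 668 CPM), and Actl6b, the subunit of the neuronal BAF complex, was silent at 1 and 0 counts. Of 28 hypoxia and stress genes 27 were on, with Hspa8 at 1378 and 1342 CPM and the inducible Hspa1a at 3.51 and 2.01 CPM.

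**Figure D3:**
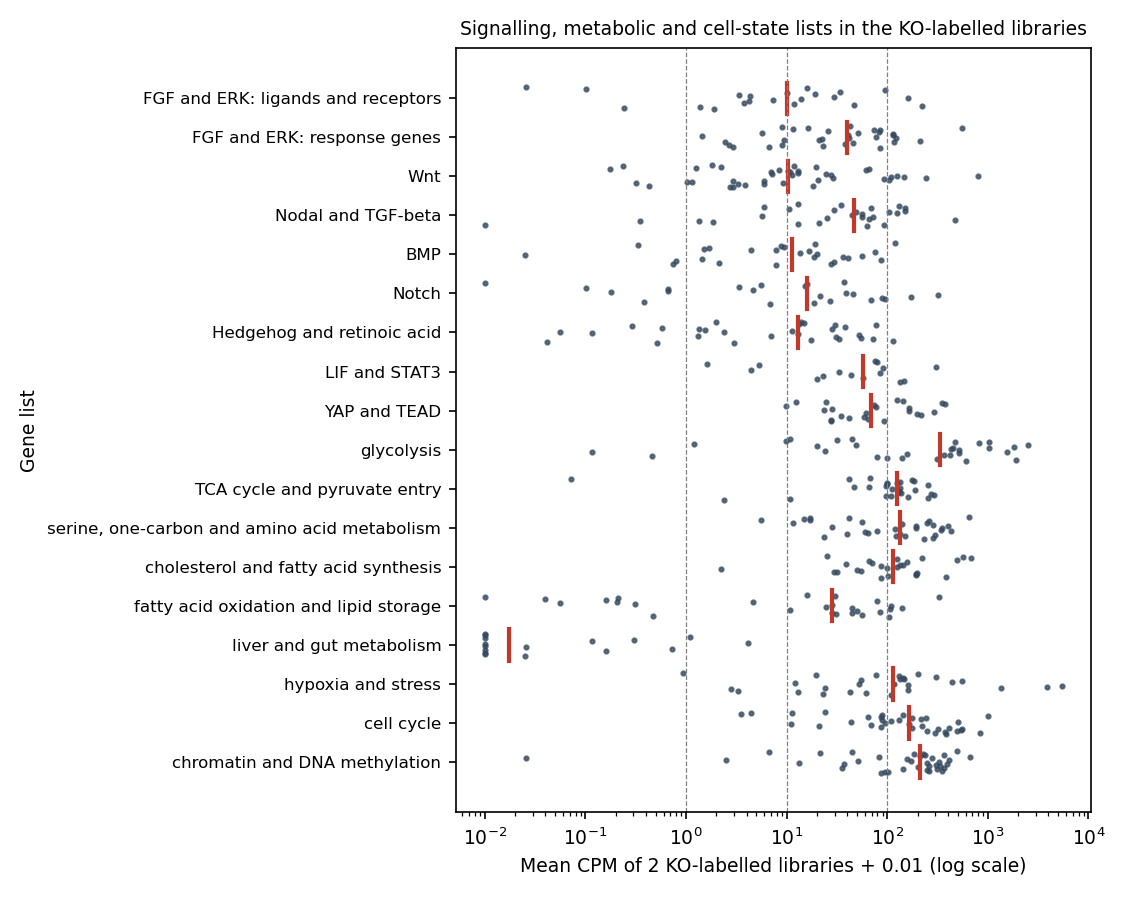
Mean CPM of the 2 KO-labelled libraries plus 0.01 on a log scale, 1 point per gene of 18 signalling, metabolic and cell-state lists, with red bars at list medians and dashed lines at 1, 10 and 100 CPM. The glycolysis median is 337 CPM and the liver and gut median 0.0075 CPM.

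A total of 171 protein-coding genes (0.805%) were on in the KO-labelled libraries and silent in the WT-labelled ones, and 28 (0.132%) the other way round. The first number was 303 without WT replicate 1, and the second was 51 without KO replicate 1 and 55 without KO replicate 2. At 10 CPM or more in both libraries stood 20 of the 171, of which 2 are unnamed gene models, and 1 of the 28. After Acta2, Col1a2 and Klf4 the highest were Csf1, a growth factor of macrophages (66.5 and 63.1 CPM), Cer1, a secreted inhibitor of Nodal and BMP (31.0 and 28.4 CPM), Cyp26a1, which degrades retinoic acid (25.6 and 30.5 CPM), and the skeletal actin Acta1 (23.0 and 20.5 CPM). Prss23, Irs4 and Lhx1 followed, at 19.1 to 21.7 CPM. Against a floor of 3 counts per library, Klf4 was at least 779-fold, Acta1 at least 216-fold, Prss23 at least 212-fold and Lhx1 at least 192-fold higher, all 4 having 0 counts in both WT-labelled libraries. The reverse set was led by Cidea (22.3 and 18.3 CPM in the WT-labelled libraries, 0 and 2 counts in the KO-labelled ones), the oocyte factor Eif4e1b, and Stra8, of meiotic entry. Pramel6, Spint5, Ceacam20, Mlana, Bhmt, Cnga4 and Hoxb13 followed, at 2.08 to 3.83 CPM on average in the WT-labelled libraries.

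The HiChIP loop list, made from other samples of the same label, was compared with RNA level. Loops were kept at a false discovery rate of at most 0.01 and at least 2 tags, which left 57463 of 489409 loops. Of 17058 genes with a promoter entry 46.9% had a loop anchor within 2500 bases of the start. The share was 8.29% of silent genes (exact binomial 95% interval 7.51 to 9.11) and 31.4% of trace genes. Among genes on, it was 50.8% of those not well expressed, 71.8% of those well expressed but not high and 82.3% of high genes (80.5 to 84.1). The WT-labelled list, smaller at 22148 kept loops, gave 2.59% and 73.6% for the same silent and high genes, 49.1% for the genes on and 31.4% over all 17058. Each label has 1 list, so there is no replicate check, and the intervals cover counting error only.

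Lists whose members were on by RNA differed in their counts of anchors. Only members with a promoter entry were scored, here and in the promoter counts below, such as 17 of the 27 pluripotency genes. All 14 LIF and STAT3 genes, 20 of 23 ERK response genes and 22 of 26 cell-cycle genes had a KO-labelled anchor. Of 17 pluripotency genes, all on by RNA, 4 had one, and those without included Pou5f1, Nanog, Esrrb, Zfp42, Tdgf1 and Fgf4. In the WT-labelled list 14 of the same 17 had an anchor. For the same class of genes, those on, the shares over all genes were 68.5% in the KO-labelled and 49.1% in the WT-labelled list. Of 20 neural progenitor genes 14 had a KO-labelled anchor (46.9% over all genes) and 6 a WT-labelled one (31.4% over all genes). The WT-labelled count lay near the background of its list. Among the 14 members on by RNA, 10 had a KO-labelled anchor, near the share of 68.5% for all genes on. Sox2 had 27 kept loops with 174 tags, Klf4 and Krt18 had 2 loops with 4 tags each, and Acta2, Krt8, Col1a2, Cer1 and Eomes had none. The markers Egr1 and Dusp4 were not scored for loops. The RNA and the loop list thus differ over the pluripotency genes, and whether both carry the same genotype was not tested.

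**Figure D4:**
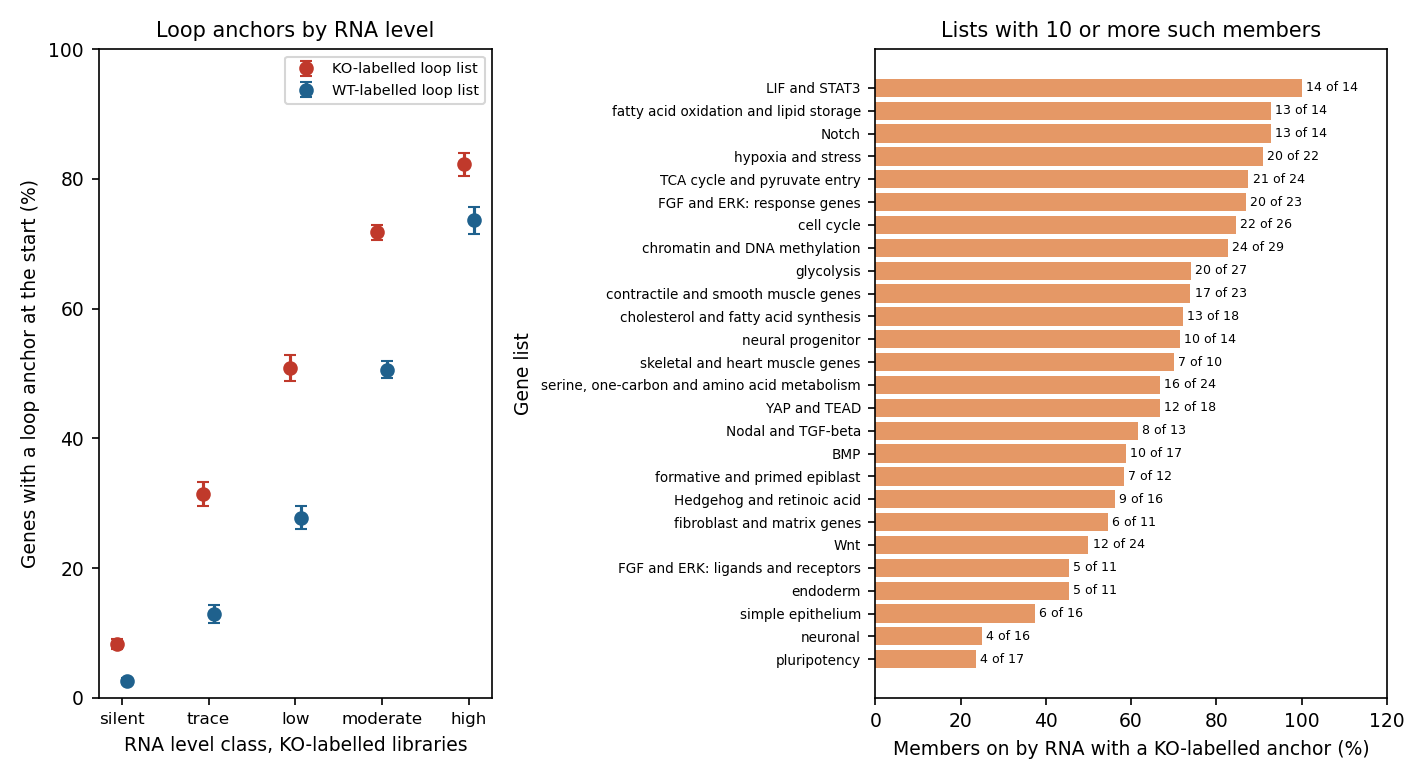
Left, the percentage of genes with a loop anchor within 2500 bases of the start by RNA level class of the KO-labelled libraries, with exact binomial 95% intervals, for both loop lists. Right, bars give the percentage of members on by RNA that have a KO-labelled anchor, with counts, for lists with 10 or more such members: 4 of 17 for pluripotency and 14 of 14 for LIF and STAT3.

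Promoter letters also followed RNA level. Over 20759 promoters of 300 bases the median share of G and C bases was 45.0% for silent and 63.0% for high genes, and CpG observed over expected was 0.166 and 0.842. GGGCGG, on either strand, was in 10.5% of silent and 71.1% of high promoters, and TATAAA in 26.7% and 6.48%. These are descriptions over genes.

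**Figure D5:**
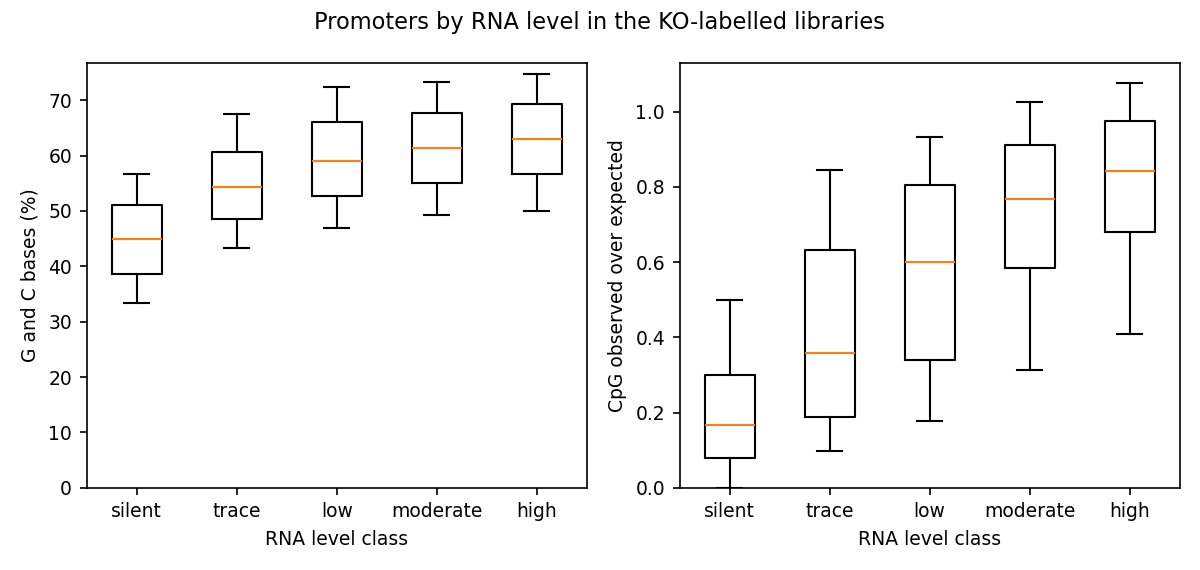
Share of G and C bases (left, percent) and CpG observed over expected (right) of 300-base promoters by RNA level class of the KO-labelled libraries, with boxes at the quartiles, orange lines at the medians and whiskers from the 10 to the 90 percentile. Medians rise from 45.0% to 63.0% and from 0.166 to 0.842.

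Counted by gene, a CArG box was found in 6 of 23 contractile genes (26.1%) and 3 of 23 ERK response genes (13.0%), against 1.77% of all 17058 genes. Shares like that of the ERK response genes were also found in short lists with other roles, such as hindbrain and spinal cord (2 of 14) and mesendoderm (2 of 16). Srf, which both lists hold, carried CCATATAAGG 82 bases and CCATAAAAGG 62 bases before its start, and Cnn2, at 262 and 252 CPM, carried CCTTATAAGG. With 1 inner base free, a version added after the data were seen, 8 of 23 contractile genes matched, including both Acta2 sites printed above, against 11.0% of all genes. This looser version matched 4 of 12 endothelial and blood genes and 3 of 9 glial genes as well, so it did not set the contractile list apart. GGAATG was in 12 of 18 YAP and TEAD genes (66.7%) and 12 of 23 contractile genes (52.2%), against 15.4% of all genes. Short lists with other roles also lay above that share, such as skeletal and heart muscle (7 of 18, 38.9%) and glia (3 of 9, 33.3%). CCAAT was in 16 of 18 genes of cholesterol and fatty acid synthesis and 19 of 26 cell-cycle genes, and also in 12 of 15 germline and 2-cell genes, against 42.1% of all genes. A match is a description of these letters, not a bound site.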

How the data were processed

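Each RNA-seq library has a table of raw counts per gene symbol, which the authors deposited without normalization. Per the submitters' processing notes, tools included HISAT2 2.1.0, featureCounts 2.0.3 and DESeq2 1.18.1 for RNA-seq and, for chromatin data, MACS2 2.2.7.1, HiC-Pro 2.11.1 and Bowtie2 2.4.4, with the build mm10, and which tool made which file is not given. The 5 closing rows that name no gene look like output of htseq-count, and the counting tool is therefore uncertain. They stayed out of library sizes: reads with no feature were 8.07% and 8.00% of the KO-labelled totals (6.16% and 6.05% WT-labelled). Reads set aside as ambiguous were 4.19% and 4.24% of the KO-labelled totals, and reads aligned to several places were 7.06% and 7.13%. Neither kind was counted for any gene, so overlapping genes and near-identical copies may be undercounted. No strand setting is given in the sources used here, so a gene may also hold reads of an antisense partner. The loop lists were deposited by the authors with tag counts and a false discovery rate (q-value) per loop, 1 list per label.

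CPM is counts over gene counts of a library, with no other scaling. Of 52535 gene rows 35810 matched the RefSeq table of GRCm38.p6, and 21238 were protein-coding. Of 842 list symbols 841 matched. The members and the 36 gene lists were chosen with earlier results of these data known. Differences between labels come from edgeR 4.0.16 in R 4.3.3 (filterByExpr, TMM, glmQLFit with robust estimation, glmQLFTest, two-sided), adjusted by Benjamini-Hochberg over 17273 genes and tested on simulated data. DESeq2 1.42.0 was an alternative. Python 3.11.15 was used for the rest. Replicates are biological, 2 per condition, according to the series design text. Genes were named by this rule: Klf4, the 4 markers, the 20 genes with the most counts outside ribosomal protein and mitochondrial genes, the top 4 and the lowest or silent 4 of each list, the genes farthest apart between replicates, and the top 10 on in 1 label and silent in the other. The noncoding RNAs and list members outside that rule, such as Pou5f1, Nanog, Fgf5, Sox1, Pax6, Tpm2, Myl9, Des, Cnn1, Actc1, Lmod1, Tubb3, Gfap, Sox10, Sox17, Foxa2, Krt8, Id3 and Tdh, were named after their values were seen. The mitochondrial genes given by name were also chosen after their values were seen. No transcript lengths were at hand, so the part of the rule on CPM per kb was not applied. Some results that this rule gives are not reported here.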

Additional observations from a re-analysis of the deposited data

How the results depend on the processing

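The number of genes on ranged from 11717 to 13207 and of silent genes from 4457 to 6952 over the alternatives run, and edgeR or DESeq2 called 11515 to 12898 genes as differing. Of 180 list counts under alternatives 174 stayed within 1.5-fold. The others were trophoblast (5 on at 2 CPM), forebrain and midbrain (5 at 2 CPM), hindbrain and spinal cord (3 at 2 CPM), glia (11 at 0.5 CPM), and liver and gut (3 at 0.5 CPM, and 1 to 2 with a KO-labelled library left out). Ribosomal protein genes took 9.83% of counts without mitochondrial genes, against 9.63% with them. Genes on in KO-labelled and silent in WT-labelled libraries numbered 298 at 0.5 CPM, 93 at 2 CPM, 419 with up to 10 counts as silent, and 205 to 303 with 1 library left out. The reverse set numbered 51, 14 and 83 under the same settings, and 36 to 55 with 1 library left out. Among genes on, the share with an anchor was 91.6% with all loops, 27.7% with at least 5 tags and 70.6% within 5000 bases. Among silent genes it was 14.9%, 3.36% and 10.3%, and 7.11% within 1000 bases. The cause of these shifts was not tested.

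Of 51 genes with a fitted difference, 4 turned direction under some setting (log2, KO-labelled over WT-labelled). Eef1a1 became 0.030 with upper-quartile factors and 0.15 with library size alone. Actg1 became -0.0022 without the filter on low counts, and ranged from -0.040 (without KO replicate 1) to 0.050 (without KO replicate 2), with -0.023 without WT replicate 1. Hnrnpa1 ranged from -0.00040 (without WT replicate 1) to 0.032 (without KO replicate 1). Tug1 became 0.082 with upper-quartile factors, 0.21 with library size alone and 0.0011 with DESeq2, and ranged from -0.068 (without KO replicate 2) to 0.054 (without KO replicate 1). Nedd4 no longer passed without WT replicate 1 or without WT replicate 2, and Slc2a3 without WT replicate 1. Actg1 and Hnrnpa1 passed with upper-quartile factors and with library size alone, and Actg1 also without KO replicate 2.

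With the replicate number as a block, 12410 genes were called in place of 12618, with 6298 higher and 6112 lower. Deviations of same-numbered libraries had r = 0.0154, so the numbers are not taken as pairs. The ranking by CPM per kb was not run, since no transcript lengths were at hand. With 1 count worth 0.0313 and 0.0300 CPM, differences among silent genes were not detectable at this depth.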
